A study of Arabidopsis thaliana with 4 samples.

Results

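Of the 37478 probes on the array that were not controls, 8812 (23.5%) were named in the scanner files only by a chromosome interval, with no locus. These interval probes were taken as all non-control probes whose systematic name begins with "chr", and the choice used no measured value. Transcript levels were compared in the Arabidopsis thaliana mutant ang3 and its control Landsberg erecta (Ler) on 4 two-colour arrays, each hybridised with RNA of both genotypes in different dyes. ang3 carried Cy5 on replicates 1 and 3 and Cy3 on replicates 2 and 4, and Ler carried the other dye. Total RNA was taken from the above-ground green tissue of in vitro seedlings grown at 21 °C with 16 h of light after 3 days of cold, and the tissue is labelled shoot apex. The sample labels give growth stage 1.02 and the series text 1.03. The mutant is known as an allele of RPL5B, which encodes a cytosolic ribosomal protein, and stands here as 1 mutant line set against 1 accession. The design text gives 2 dye swaps with biological replicates but does not state which arrays share RNA extracts, so each array was counted as 1 replicate (n = 4), and p-values may measure partly technical spread.

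As background, plant genomes are transcribed outside their annotated genes. Probes in such intervals can read noncoding RNAs, transcripts of transposable elements, extensions of neighbouring transcripts past an annotated end, or genes missing from the annotation in use when the array was designed. An interval probe therefore reports a level at a position and names no product. The files give the genome build as not applicable and hold no probe sequences, so positions below are those in the probe names, and no gene was assigned to an interval. Whether later annotation covers an interval was not examined.

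A name gives a start and an end, and 8696 of the 8812 intervals (98.7%) spanned exactly 60 bases, which is the length of probes of this array type. Of the rest, 97 spanned more, up to 969 bases, and 19 spanned less, down to 45. The name ran from the lower to the higher coordinate in 4666 cases, called ascending here, and the other way in 4146, called descending. The probes were spread over all nuclear chromosomes, with 2165 on chromosome 1, 1425 on chromosome 2, 1783 on chromosome 3, 1250 on chromosome 4 and 2189 on chromosome 5. Consecutive probes started a median of 6317 bases apart.

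Between 19224 and 21332 of the 37478 probes were well above background per channel, and the ratios of all tested features correlated between arrays with r from 0.39 to 0.73 across features, which are not independent replicates. RPL5B (AT5G39740) had log2 ratios of -0.36, 0.10, 0.02 and 0.08 on replicates 1 to 4 and did not pass (mean -0.04, SE 0.069, n = 4; limma adjusted p = 0.70). Its sign changed with the processing, so it gave no check of the labels. Of 7 meristem and organ boundary markers 5 were well above background in both genotypes, while WUS and CLV3, which mark small groups of cells in the meristem centre, were not on any array. Among them STM and KNAT1, homeobox genes of the meristem, rose in ang3 by 0.36 and 0.32 on the log2 scale, while CLV1 (-0.18), CUC2 (0.01) and CUC3 (0.10) did not pass. All 5 green leaf markers were well above background, and 4 of them fell by 0.17 to 0.56, with PSBO1 not passing. Of 6 root markers, 3 in ang3 and 1 in Ler were well above background on at least 3 arrays, and EXPA18, RHD6 and PRP3 were on none. In such bulk tissue, fewer cells of a type and less RNA per cell cannot be told apart, and the part of these marker differences in the interval results was not tested.

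Most interval probes were not well above background in these seedlings. In ang3, 1315, 1233, 1116 and 914 of the 8812 were well above background on replicates 1 to 4, against 1302, 1304, 1168 and 827 in Ler. These counts correspond to 10.4% to 14.9% of the interval probes in ang3 and 9.38% to 14.8% in Ler. On no array were the genotypes more than 1 percentage point apart, and replicate 4 had the lowest count in both. Probes with a locus name were well above background in 68.2% to 73.3% of cases. Negative-control spots reached the same flag in 5 or fewer of 153 cases per channel, with 0 of 153 on replicates 2 and 3. Over the 8 readings of a probe, 4 arrays in each of both genotypes, 6976 interval probes (79.2%) were never well above background, 703 (7.98%) were in all 8, and 1133 (12.9%) were in between.

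**Figure D1:**
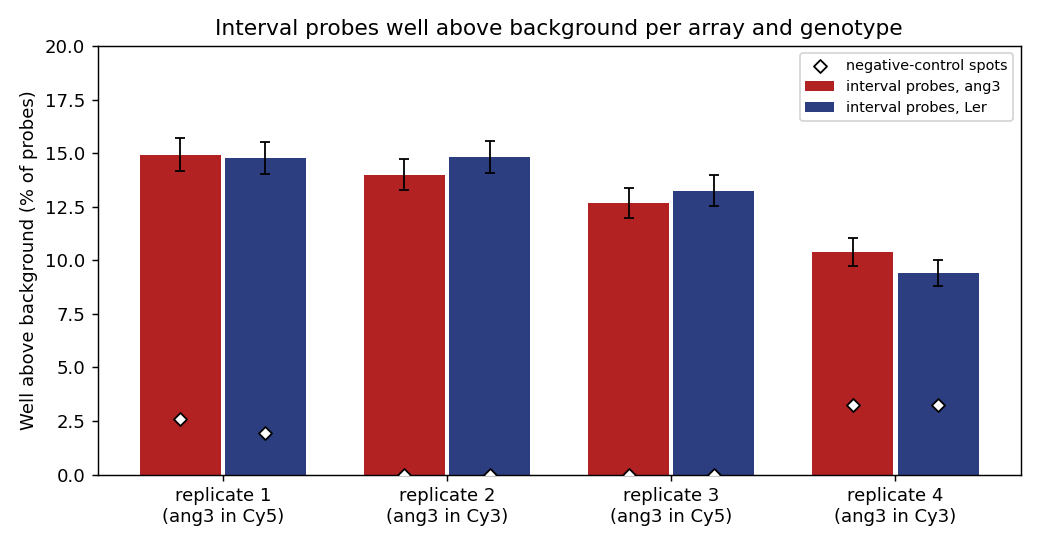
Share of the 8812 interval probes well above background (y axis, percent) on each array (x axis) in ang3 (red, left bar) and Ler (blue, right bar). Error bars are exact 95% binomial intervals, which cover counting error only, and white diamonds are the 153 negative-control spots. All bars lie between 9.38% and 14.9%, above the 0% to 3.27% of the negative controls.

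Probes entered the test where 1 genotype had them well above background on 3 or 4 arrays, which 1043 interval probes (11.8%) passed, against 71.8% of locus probes. Among intervals longer than 60 bases, 29 of 97 (29.9%) passed, and 10 of the 19 shorter ones did, against 1004 of 8696 (11.5%) that spanned exactly 60. The longest that passed, chr4:12227260-12228228, covers 969 bases. Ascending and descending names passed equally often, in 11.8% and 11.9% of cases. The files do not state whether the direction of a name marks the strand a probe reads. Of 205 pairs of overlapping interval probes with names of opposite direction, both probes passed in 6, 1 of them passed in 22 and neither in 177.

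Each ratio given from here on sets ang3 over Ler, as the mean log2 value of 4 arrays after background correction with an added offset of 50 intensity units. A difference was called at an adjusted p under 0.05 in limma over all 20155 tested features. Of the 1043 tested interval probes, 72 rose in ang3, 75 fell and 896 did not pass. The share called was 14.1%, below the background of 26.2% over all tested features, where 15.0% were higher and 11.2% lower in ang3. The median log2 ratio of the tested interval probes was -0.01, against 0.01 over all features, and the middle 90% of interval ratios lay between -0.20 and 0.22. Of the 147 called probes 136 had the same sign on 4 of 4 arrays, and the median size of their ratio was 0.24, close to the 0.26 of all called features. Over 2-fold, 2 interval probes were higher and 0 lower in ang3, against a background of 0.501% higher and 0.0298% lower over all features. In limma 271 of the 1043 interval probes had an unadjusted p under 0.05, against 8415 of the 20155 tested features.

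The balance of higher and lower calls depended on the scaling, and so did the order of the shares called. With the authors' processed signals 24.8% of the interval probes were called, above the 22.5% of all tested features. With the authors' processed signals 75 interval probes were higher and 184 lower in ang3, so that 29.0% of the called probes were higher, against 49.0% above. Over all called features 46.8% were higher with the processed signals, against 57.1% with loess. With each array centred on its median, 108 were higher and 22 lower (83.1% higher), while 94.2% of all called features were higher. In that setting 12.5% of the interval probes and 36.6% of all features were called. The median ratio of all features moved to 0.14, against 0.01 with loess, while that of the interval probes stayed at -0.002. No excess in either direction over the interval probes as a whole is therefore reported. Without replicate 3 the counts fell to 11 higher and 4 lower. Without replicate 1 they were 35 and 34, without replicate 2 31 and 22, and without replicate 4 39 and 26. Over all tested features the share called fell from 26.2% to 2.66% without replicate 3. It was 14.4%, 10.3% and 12.8% without replicates 1, 2 and 4.

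The share called rose with signal. When all tested features were divided into 4 equal groups by mean signal, 816 of the 1043 interval probes (78.2%) fell in the dimmest group, where 9.07% were called, against 17.2% of the other features there. In the next group 28.4% of 169 interval probes were called, against 25.2% of the others. In the 2 brightest groups 15 of 39 and 10 of 19 interval probes were called, against 25.9% and 37.5% of the others. The lower share over all interval probes was thus measured together with their low signal, and in the 3 brighter groups their share was the higher one. The differences between these shares were not tested.

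**Figure D2:**
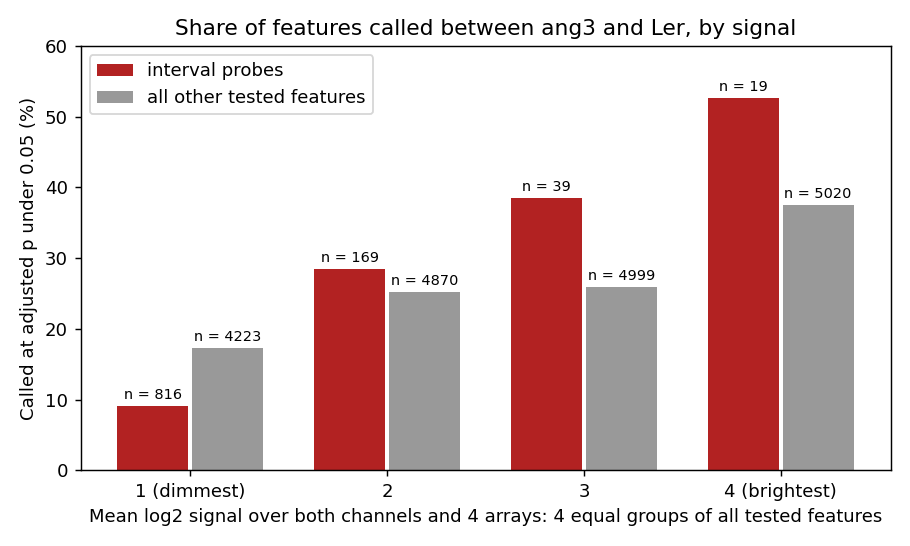
Share called at an adjusted p under 0.05 (y axis, percent) in 4 equal groups of all tested features by mean log2 signal (x axis) for interval probes (red, left) and all other tested features (grey, right). Numbers above bars are the features in each. Interval probes stand at 9.07% in the dimmest group and 52.6% in the brightest, the last on 19 probes.

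The largest increase was at chr1:7542848-7542907 (descending). Its deposited processed signals in ang3 were 324, 283, 326 and 229 intensity units on replicates 1 to 4, against 13.7, 17.5, 32.6 and 10.9 in Ler. The groups did not overlap. Over all 20155 tested features the processed signals of ang3 lay wholly above those of Ler in 9.40% and wholly below in 11.2%, and over the 1043 tested interval probes in 6.71% and 12.9%. It was well above background on 4 of 4 arrays in ang3 and on none in Ler, so its fold is a bound, at least 2.27-fold higher in ang3 (log2 ratio 1.19, SE 0.088, n = 4; adjusted p = 0.0067). With an offset of 0 the log2 ratio was 1.76. Ratios of dim probes thus depend on the scale, and the processed signals, made by another background correction, give larger ones.

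chr5:6663769-6663828 (descending) followed, with processed signals of 370, 405, 430 and 354 in ang3 and 91.5, 87.0, 81.9 and 74.4 in Ler. Its log2 ratio was 1.07 (SE 0.097, SD 0.40, n = 4; adjusted p = 0.0078), or 2.22 in the processed signals. chr1:10776117-10776176 had 654, 490, 757 and 381 units in ang3, against 219, 199, 201 and 162 in Ler, a log2 ratio of 0.97 (SE 0.077; adjusted p = 0.0074). In both, all ang3 values lay above all Ler values. Both were well above background in all 8 readings and kept their call under every alternative tried.

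Neighbours on chromosome 3 were among the highest probes at separate places. chr3:7367507-7367566 and chr3:7369245-7369304, 1679 bases apart and both ascending, rose by 0.81 (SE 0.076; adjusted p = 0.0079) and 0.64 (SE 0.036; adjusted p = 0.0050). Processed signals of chr3:7367507-7367566 were 258, 277, 292 and 293 in ang3 and 88.4, 84.7, 80.1 and 94.0 in Ler. A further ascending probe 12174 bases below, chr3:7355274-7355333, was well above background on 3 arrays in ang3 and on none in Ler (46.2, 42.5, 48.8 and 45.5 units in ang3, against 10.8, 6.21, 8.03 and 10.9 in Ler). It rose by 0.21, or 1.16-fold with the offset (adjusted p = 0.023), a call lost without any 1 of the 4 arrays and with median centring. chr3:21340261-21340320 rose by 0.95 (SE 0.048; adjusted p = 0.0044), with 262, 244, 272 and 299 units in ang3 and 52.0, 55.8, 73.1 and 56.5 in Ler. Its neighbour chr3:21334717-21334776, 5485 bases away and also ascending, had 72.5, 81.5, 88.1 and 70.7 units in ang3, against 5.50, 14.7, 27.6 and 8.62 in Ler, where it was not well above background on any array. It rose by 0.48, or 1.40-fold with the offset (adjusted p = 0.0076). At all 5 of these positions the ang3 values lay above the Ler values without overlap, as they did in 9.40% of all features. The positions were named for their ratios or detection, a choice that favours this, so the count is not a result about them.

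The other 6 of the 12 highest called probes had log2 ratios between 0.61 and 0.48. They were chr5:17326114-17326173 (0.61), chr2:2264420-2264479 (0.57), chr3:15419665-15419724 (0.53), chr1:15298370-15298429 (0.50) and chr3:20384688-20384747 (0.48), beside chr3:21334717-21334776 above. The call at chr2:2264420-2264479, with 0.16 on replicate 1 and 1.20 on replicate 2, was lost with an offset of 0, without a dye term and without replicate 1 or 3. Those at chr3:15419665-15419724 and chr1:15298370-15298429 were lost without replicate 3. Of the 12, 6 lay on chromosome 3, 3 on chromosome 1, 2 on chromosome 5 and 1 on chromosome 2, and 6 were well above background in all 8 readings. In 11 of the 12 replicate 1 had the smallest ratio, and over all features it had the smallest spread of ratios (SD 0.20, against 0.28 to 0.34 on the other arrays). In all of the 12 but chr1:10776117-10776176 and chr3:20384688-20384747, both arrays with ang3 in Cy3 had larger ratios than both with ang3 in Cy5. At chr3:21340261-21340320 they were 1.29 and 1.22 with ang3 in Cy3, against 0.55 and 0.76. The tested interval probes as a whole had SDs of 0.23 and 0.20 on the arrays with ang3 in Cy3, against 0.12 and 0.16 with Cy5. An effect of the dye and a wider spread on those arrays cannot be told apart here. A printed SE is taken after the dye term, which takes up this difference.

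**Figure D3:**
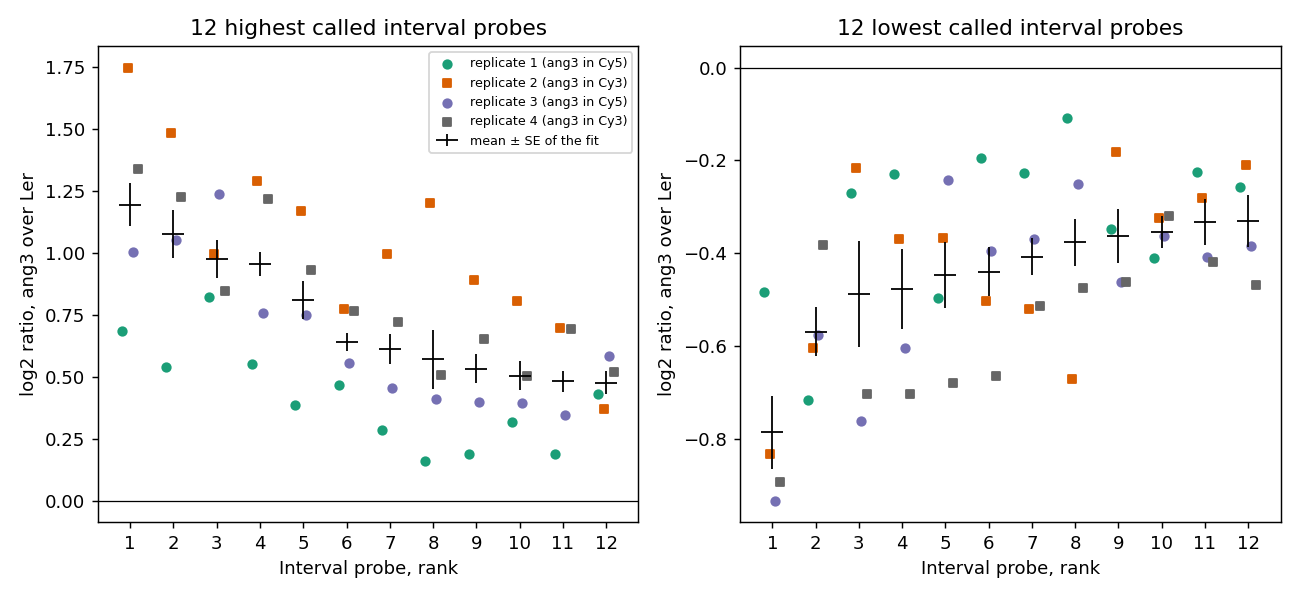
Log2 ratio of ang3 over Ler (y axis) on each array for the 12 highest (left) and 12 lowest (right) called interval probes with the same sign on 4 arrays, ordered by rank (x axis). Circles are arrays with ang3 in Cy5, squares with ang3 in Cy3, and black bars the mean ± SE of the fit. The highest probe averages 1.19 and the lowest -0.79.

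Decreases were smaller. The lowest probe, chr3:6155600-6155659, had processed signals of 803, 779, 680 and 730 in ang3, against 1319, 1507, 1556 and 1476 in Ler. It fell by 0.79 on the log2 scale (SE 0.079, n = 4; adjusted p = 0.0084), and the genotypes did not overlap. chr2:3386825-3386884 fell by 0.57 (SE 0.053; adjusted p = 0.0079), with 3778, 4843, 4594 and 5075 units in ang3 and 6500, 7378, 6864 and 6623 in Ler. chr1:11217282-11217341 and chr3:22914105-22914164 (descending) had ratios of -0.49 and -0.48, and the arrays spread from -0.22 to -0.76 and from -0.23 to -0.70. Both calls were lost without replicate 3 or 4, and that at chr1:11217282-11217341 also without replicate 2 and without the filter. The remaining 8 of the 12 lowest had ratios from -0.45 to -0.33. All 12 were well above background in all 8 readings, unlike the highest 12.

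chr1:8032768-8032827, at -0.45 (SE 0.072; adjusted p = 0.016), had a called neighbour 392 bases away, chr1:8032317-8032376, at -0.33. On chromosome 5 chr5:4388905-4388964 and chr5:4389931-4389990, 967 bases apart, had ratios of -0.31 and -0.29. Both pairs were ascending. The calls at chr1:8032768-8032827 and chr5:4388905-4388964 were lost without replicate 3, and the one on chromosome 1 also without replicate 1.

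Chromosome 4 held few calls with the offset of 50. Of its 128 tested interval probes 2 rose and 8 fell, or 7.81%, against 26.2% of all features. The count of 10 was 23 with the processed signals, 2, 1 and 0 without replicate 1, 2 and 3, and 4 without replicate 4. The share called was 15.6% on chromosome 1, 17.1% on chromosome 2, 14.5% on chromosome 3 and 12.6% on chromosome 5. The probes that rose were chr4:11795213-11795272 (0.26) and chr4:58530-58581 (0.20), and both calls were lost with the processed signals and without replicate 1, 2 or 3. The lowest on chromosome 4 with the same sign on all arrays were chr4:6223650-6223709 (-0.26) and chr4:2351672-2351731 (-0.22), whose calls were lost with median centring and without replicate 2, 3 or 4.

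Probes seen in 1 genotype only were mostly seen in ang3. On at least 3 arrays in 1 genotype and on none in the other, 11 interval probes were well above background in ang3 and 1 in Ler. Among all other probes the counts were 88 in ang3 and 11 in Ler. The chr5:17326114-17326173 probe had 109, 104, 91.1 and 86.5 units in ang3 and 4.99, 5.62, 6.88 and 9.04 in Ler, 1.53-fold higher with the offset (adjusted p = 0.0083). chr3:15419665-15419724 had 68.2, 98.3, 80.3 and 82.9 units in ang3 and 4.78, 11.8, 6.55 and 12.6 in Ler (1.45-fold, adjusted p = 0.0095). chr3:11485245-11485304, chr2:2326124-2326183 and chr1:17326959-17327018 were 1.23-, 1.20- and 1.17-fold higher in ang3. These 3 calls were lost without replicate 3, those of chr3:11485245-11485304 and chr1:17326959-17327018 also without replicate 2, and that of chr1:17326959-17327018 also without replicate 4. The folds in this paragraph are mean ratios with the offset and not bounds. The 1 probe seen only in Ler, chr3:4730962-4731021 (descending), had 22.6, 23.6, 21.4 and 24.1 units in ang3, against 33.6, 41.4, 38.1 and 31.0 in Ler, and did not pass (log2 ratio -0.11; adjusted p = 0.18). Of the 12 probes seen in 1 genotype 8 were called, all of them higher in ang3. Over all tested features 26.2% were called and 15.0% were higher in ang3. The choice of members by their detection favours calls in this direction, so the count is not a result about them. Of the 11 probes seen only in ang3, chr3:18031698-18031757 (0.28), chr5:21792030-21792089 (0.13) and a probe on chromosome 4 did not pass.

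The authors' own criterion, which asks of a single array an error-model p under 0.05 and a deposited log2 ratio beyond 1 in size, was met by 43, 39, 37 and 24 higher and 24, 25, 14 and 6 lower interval probes on replicates 1 to 4. Over all 37478 probes 376, 830, 722 and 493 met it as higher and 212, 267, 167 and 205 as lower. On all 4 arrays together 16 interval probes met it as higher in ang3 and 0 as lower, against 163 and 29 of all probes. Most of the 16, among them chr5:17326114-17326173, were not well above background on any array in Ler. The size of their ratios thus rests on Ler signals near background. Of these 16, 15 were among the tested probes and chr2:11336004-11336063 was not, being well above background on 2 arrays in ang3.

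Neighbouring interval probes had similar ratios. Among tested probes next to each other within 1 kb there were 98 pairs, and 76 (77.6%) had ratios of the same sign. Over the 77 pairs whose names ran the same way the ratios correlated with r = 0.84 across pairs, and over the 21 pairs of opposite direction with r = 0.48. Within 5 kb r was 0.59 and 0.48 for these kinds of pair, and within 20 kb 0.41 and 0.25. These correlations are descriptions: the probes of a pair share their arrays and can read 1 transcript. In 13 of the 98 pairs both probes were called, in all 13 with the same sign.

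**Figure D4:**
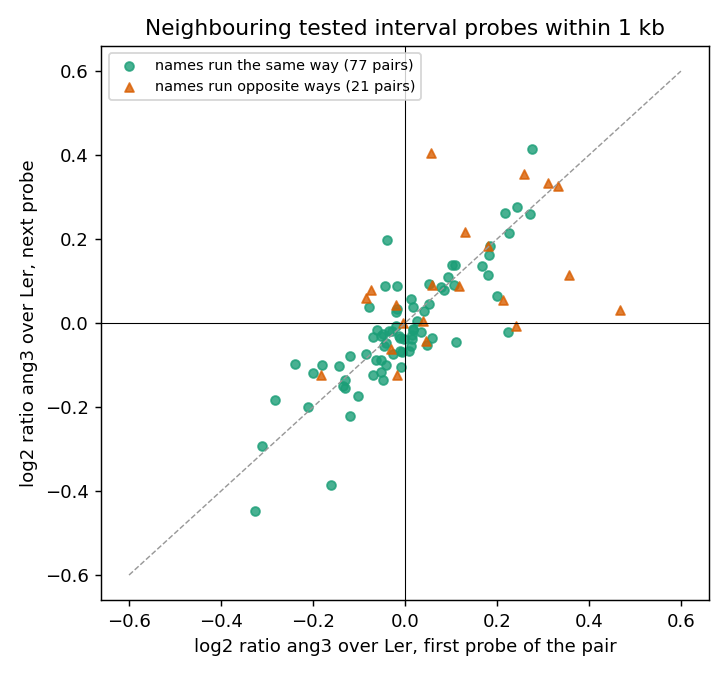
Log2 ratio of ang3 over Ler of the first (x axis) and the next (y axis) probe of each pair of neighbouring tested interval probes within 1 kb, with circles for the 77 pairs whose names run the same way and triangles for the 21 that run opposite ways. The dashed line marks equal ratios. Of the 98 pairs 76 lie in the quadrants of equal sign.

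Probes of opposite direction also rose together. chr5:20813218-20813277 (ascending), chr5:20813223-20813282 (descending) and chr5:20813259-20813318 (ascending) overlap, and rose by 0.31, 0.33 and 0.33 (SE 0.043, 0.033 and 0.035; adjusted p = 0.012, 0.0084 and 0.0088). The descending probe had 344, 341, 341 and 331 units in ang3, against 198, 271, 230 and 243 in Ler, and the ascending probe it overlaps most had 264, 247, 264 and 183, against 157, 160, 167 and 145. All 3 were higher in ang3 on 4 of 4 arrays and well above background in all 8 readings. Their calls were lost without replicate 3 (adjusted p of 0.056 to 0.075).

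With gaps of at most 5 kb, 35 runs of 3 or more tested probes were found, 25 of 3, 8 of 4 and 2 of 5 probes. In 18 of them no probe was called. In 11 at least 2 probes were called, and in 16 all ratios had 1 sign. On chromosome 1, the run of 4 probes that starts at chr1:28894202-28894261 had ratios of 0.16 to 0.18, of which 3 were called, and 2 of the 3 probes of the run at chr1:5297856-5297915 rose by 0.23 and 0.21. The run at chr1:1955376-1955435 had ratios of -0.33 to -0.10, with 1 of 4 called. On chromosome 3, the 3 probes of the run that ends at chr3:23339597-23339656 all fell (-0.14, -0.16 and -0.39). The arrays of all 3 split by dye. The last probe had -0.61 and -0.74 where ang3 carried Cy5 and -0.20 and 0.005 where it carried Cy3. The 2 called probes of the run at chr1:5297856-5297915 rose more where ang3 carried Cy3. At chr1:5298044-5298103 the ratios were 0.40 and 0.39 there, against 0.06 and 0.001 where ang3 carried Cy5.

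One stretch of chromosome 2 stood apart in detection. In windows of 250 kb with at least 10 interval probes, of which there were 424, a median of 10.6% of the probes passed the filter, and the window chr2:3250001-3500000 had the highest share, 47 of 85 (55.3%), with 37.5% in the next. The window was singled out after its values were seen. Of its 47 tested probes 13 rose, 5 fell and 29 did not pass, so that 38.3% were called, against 13.0% of the 996 interval probes tested elsewhere and 26.2% of all features. With detection in all 8 readings required, 12 rose and 5 fell of 36 in the window. In that setting 19.0% of the interval probes outside it and 28.7% of all features were called. The difference was not tested. It held 18 of the 36 calls on chromosome 2, and no other window held more than 5. As background, chromosome 2 of Arabidopsis is known to carry a large insertion of mitochondrial DNA near its centromere, and probes in such a copy can also read transcripts of the mitochondrion. Whether these probes lie in it was not tested, since the files name no genome build.

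Ratios within the window ran in both directions a short distance apart. The lowest, chr2:3386825-3386884 at -0.57, lies 1280 bases from chr2:3388164-3388223, which rose by 0.25 (SE 0.042; adjusted p = 0.017). chr2:3437411-3437470 and chr2:3437589-3437648, 119 bases apart, fell by 0.28 and 0.18. The call at chr2:3437411-3437470 was lost with median centring and without replicate 2, 3 or 4, and that at chr2:3437589-3437648 with median centring and without any 1 of the 4 arrays. chr2:3276632-3276691 and chr2:3262429-3262488 fell by 0.25 and 0.18. Among those that rose, chr2:3425366-3425425 had the highest ratio at 0.42, with 0.11 on replicate 3 and 0.85 on replicate 4, and its neighbours chr2:3425162-3425221 and chr2:3424862-3424921 stood at 0.28 and 0.24. chr2:3333828-3333887 rose by 0.40 and chr2:3337797-3337856 by 0.22.

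A group of 3 called probes lay within chr2:3298667-3299050. The ascending chr2:3298991-3299050 was very bright, with 23163, 23322, 21759 and 19769 units in ang3 and 19235, 16187, 18286 and 14393 in Ler, and rose by 0.36 (SE 0.036; adjusted p = 0.0084). The descending chr2:3298846-3298905 and chr2:3298667-3298726 rose by 0.26 and 0.27 (SE 0.035 and 0.036; adjusted p = 0.012 each). The first of these had 540, 474, 490 and 514 units in ang3, against 428, 401, 395 and 396 in Ler. At these 3 positions the ang3 values lay wholly above the Ler values, as they did in 9.40% of all features. The positions were named as close called pairs, a choice that favours this, so the count is not a result about them. The calls of both descending probes were lost without replicate 3.

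Over the 47 probes the median ratio was 0.09, and 37 lay above 0. By array the median was 0.03, 0.14, 0.07 and 0.15 on replicates 1 to 4, smaller where ang3 carried Cy5 than where it carried Cy3. With the processed signals 15 rose and 5 fell, and with median centring 14 rose and 1 fell. Without replicate 3 only 1 rose and 1 fell, and without replicate 1 4 rose and 3 fell. Over all tested features 2.66% and 14.4% were called in these settings. Of the 4 mitochondrial loci with a probe of their own, ATMG00580 rose by 0.57 (SE 0.056; adjusted p = 0.0083), ATMG00516 (0.01) and ATMG00285 (0.04) did not pass, and ATMG00300 was not above background on any array. Outside the window the 78 pairs within 1 kb still correlated with r = 0.78, and 24 of the 35 runs lay outside it. Of the 17 runs with a called probe, however, 8 lay in the window.

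**Figure D5:**
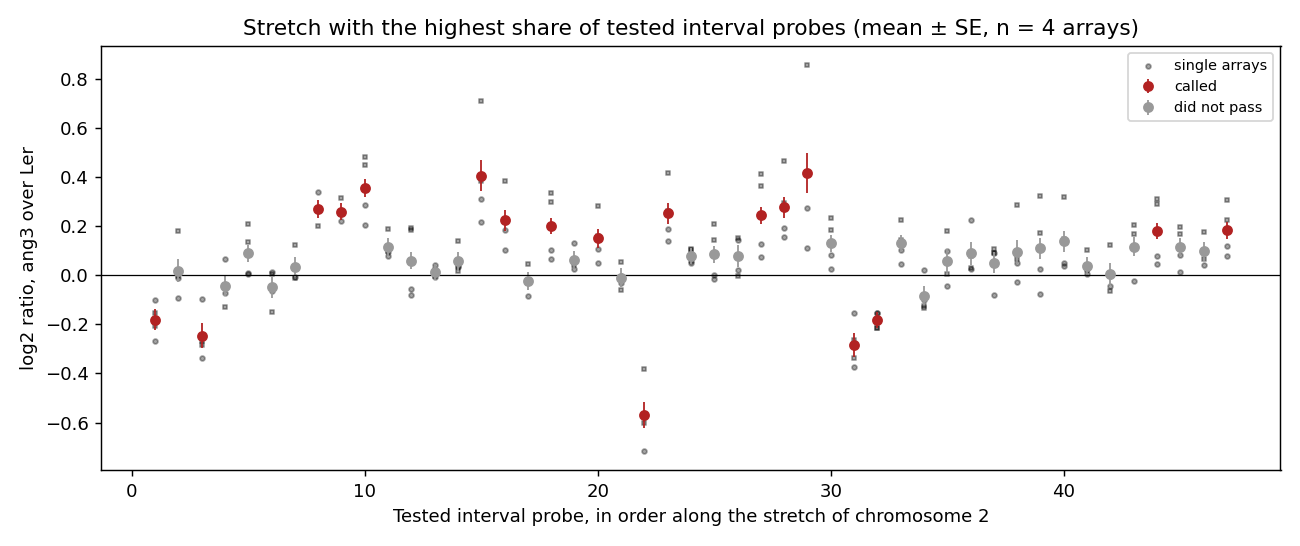
Log2 ratio of ang3 over Ler (y axis) of the 47 tested interval probes of the chromosome 2 window in order of position (x axis). Large points are the mean ± SE of the fit, red where called and grey where not, and small points the 4 single arrays (circles with ang3 in Cy5, squares with ang3 in Cy3). The 13 increases and 5 decreases are interspersed along the window, from -0.57 to 0.42.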

How the data were processed

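The scanner files are the output of Agilent Feature Extraction 10.1.1.1, per the file headers and the submitters' processing notes. The deposited spot and background intensity values are median pixel brightness, not normalized. Per the file headers, the authors' processed intensity values are background-subtracted with detrending and dye-normalized within each array. The deposited log10 ratio is processed red over green, with a p-value per spot from the authors' error model for 1 array. The authors' series table gives 32149 probes (5832 of them interval probes) as log2 ratios made from these processed values, already ang3 over Ler on each array (r and slope of 1 against the scanner values) and not centred (column medians -0.045, 0.026, 0.0077 and -0.097).

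Here median signals were corrected with normexp (offset 50) and normalized by loess in R 4.3.3 with limma 3.58.1. Control spots and the 12, 6, 12 and 4 outlier spots were left out, and no spot was saturated. Spots of a probe were averaged (8821 spots for the interval probes), each locus entered through its brightest probe, and lmFit and eBayes were run on 20155 features including a dye intercept (residual degrees of freedom 2, prior 3.03), with Benjamini-Hochberg adjustment. A printed SE comes from that model, after the dye term. An SD given with a probe is the spread of its 4 ratios, and an SD of an array is the spread over probes. Bounds of folds use channel levels after loess and Aquantile. The undetected channel was raised to the lowest level of any probe well above background there. Of the named probes seen in 1 genotype, only chr1:7542848-7542907 had a bound that differed from its mean ratio. The 4 arrays lay on 1 slide in 1 scan, so no batch could be tested. Their number limits the precision.

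Named probes were the 12 highest and 12 lowest called ones with 1 sign on 4 arrays, the 2 highest and 2 lowest per chromosome, those seen in 1 genotype (10 at most per direction), the 5 closest called pairs, and runs of 3 or more, of which those without calls are given as counts. The neighbours and window probes named beside them, and chr2:11336004-11336063, were chosen after their values were seen. The members and rules were chosen with earlier results of these data known. The fit was tested on simulated data. Alternatives were the processed signals, the series table, the offset, the normalization, the filter, the dye term, every probe singly and each replicate left out. Figures were drawn with matplotlib 3.10.9 in Python 3.11.15.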

Additional observations from a re-analysis of the deposited data

How the results depend on the processing

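The number of interval probes higher in ang3 (72) stayed within 1.5 times under the alternatives that kept all 4 arrays, whereas the number lower (75) was 184 with the processed signals and with the authors' series table, 22 with median centring and 48 without a dye term. With median centring 94.2% of all called features were higher in ang3, against 57.1% with loess. The median log2 ratio of the interval probes moved to -0.12 with the processed signals and the series table, where that of all features was -0.02. Over 2-fold, 17 probes were higher with the processed signals or the series table, 6 with a normexp offset of 0, 4 with median centring and 1 with detection in all 8 readings required. None was lower under any alternative. Leaving out 1 replicate gave 11 to 39 higher and 4 to 34 lower interval probes, 1 to 4 over 2-fold, and medians of -0.02 to -0.01. The share called over all tested features was then 2.66% to 14.4%, against 26.2%. Neighbouring pairs of the same sign numbered 71 to 82 of 98 where all pairs were kept, and 55 of 69 with detection in all 8 readings, alternatives added after seeing the data. Interval probes seen in 1 genotype numbered 6 with 4 of 4 arrays against none, and 24 with the flag for a positive and significant signal, against 12. RPL5B was at 0.095 with median centring and between -0.13 and 0.057 with 1 replicate left out, against -0.04, and passed under no alternative. Of 42 called probes named by the rule, 15 kept their call without replicate 3, 32 without replicate 2, 32 without replicate 4 and 36 without replicate 1, and none changed sign. With fewer arrays the fit has 1 residual degree of freedom. Each tested ratio already pairs both genotypes on 1 array, so no further replicate block was fitted. Low signal limits most interval probes: 78.2% of those tested fell in the dimmest of 4 equal signal groups.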
